A study of Xenopus allofraseri with 8 samples.

Results

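The assembly from the knee extensor muscles of 8 *Xenopus allofraseri* males held 163981 Trinity genes, of which 34222 had a tested transcript. Between endurant and burst-performant individuals, edgeR's exact test called 109 of 55631 tested transcripts (0.196%), and its quasi-likelihood test called 0. The transcripts called by the exact test lay in 102 Trinity genes. Of these genes, 3 had an isoform called higher in endurant and another called higher in burst-performant individuals. They are *nif3l1* (TR28180|c0_g1), *ranbp3* (TR75517|c6_g1, written *ranbp3.L* in the annotation of the study) and a gene labelled *akap1* (TR84007|c4_g3). The study also reports *ddit3* isoforms in both directions, but no further Trinity gene had calls in both directions here. A Trinity gene groups the assembled transcripts whose names differ in their last element, the isoform. All transcripts with these names were taken, which gave 2, 2 and 11 isoforms, or 15 of the 218541 transcripts in the assembly. The 3 genes were chosen by the log2 fold changes and FDR of edgeR's exact test, which called an isoform in each direction. Every difference between endurant and burst-performant individuals below is therefore a description of values that were used in the choice. Calls and counts of p-values of these isoforms are listed below as a description as well and are no test of the differences.

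The frogs were adult wild-caught males from a single pond, housed in one facility, and no treatment or genetic change separated them. Frogs A, D, E and G were classed as endurant and the others, B, C, F and H, as burst-performant (n = 4 each) from their locomotor performance, and 1 library of polyA RNA was made from the right knee extensors of each frog. Only this category was used, since the trait values of single frogs are not part of the labels. The study lists velocity, acceleration, time and distance for each frog, and these were not set against the isoforms here. By that list the classes overlapped in velocity and in acceleration, but not in time or distance. The labels name no sequencing batch.

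NIF3L1 is a conserved protein that has been described in mammals as a partner of transcriptional corepressors. RANBP3 is a nuclear Ran-binding protein that acts in vertebrates as a cofactor of the exportin CRM1, which carries proteins with a nuclear export signal out of the nucleus. AKAP1 is a scaffold of the mitochondrial outer membrane that holds protein kinase A close to its substrates. Alternative splicing, alternative transcript ends, alleles and the duplicated chromosome sets of an allotetraploid frog can each give rise to similar transcripts of 1 gene in a de novo assembly, and the deposited tables do not separate these sources. The assembled sequences were not used here, so that isoforms are described by their lengths and levels.

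Estimated counts are numbers of read pairs that Kallisto assigned to a transcript. Read pairs that match several isoforms are shared among them by an estimate, so that a count of 0 for an isoform can hold read pairs that would also match it. Levels are given as CPM, that is, counts per 1000000 on library sizes scaled by edgeR's TMM method, or, between genes, as TPM, which corrects for transcript length. A share is the percent of the estimated counts of a gene held by an isoform. It is not corrected for length, so that long isoforms weigh more in it than in TPM. Total estimated counts per frog ran from 4449192 to 17359253, with frogs D and H the shallowest. Gene totals of the muscle genes *mybpc2* (fast-type myosin-binding protein C), *tmod4* (a tropomodulin that caps thin filaments) and *ocm4.1* (a parvalbumin-type calcium buffer) were high in every frog, with medians of 472, 133 and 4959 TPM. Their isoforms had been called in the same contrast. *fsd2*, which had been taken as a muscle gene together with them, was not high, with a median of 0 and a maximum of 11.4 TPM. *spib.S*, a gene of blood cell lineages, ran from 9.53 to 32.4 TPM.

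In *nif3l1*, only 1 of the 2 isoforms was counted in each frog, after rounding, and the isoform followed the performance class. Isoform 1 (1502 bases) was counted 13, 6, 45 and 16 times in the endurant group (A, D, E and G, in this order throughout) and not once in the burst-performant ones. Isoform 2 (1513 bases) was counted 24, 16, 34 and 9 times in the burst-performant group (frogs B, C, F and H, likewise) and rounded to 0 in the endurant ones. The groups therefore did not overlap in either isoform.

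In CPM, isoform 1 of *nif3l1* was at 1.62, 1.32, 2.69 and 1.46 in frogs A, D, E and G, a mean of 1.77 ± 0.623 (SD, n = 4). Isoform 2 was at 1.88, 2.30, 2.15 and 2.49 CPM in frogs B, C, F and H, a mean of 2.20 ± 0.260 (SD, n = 4). Against a floor of 3 counts over the group at 0, isoform 1 was at least 26.0-fold higher in endurant and isoform 2 at least 28.4-fold higher in burst-performant individuals by pooled counts. Floors and intervals take in the error of counting alone and leave out the spread between frogs. Fold bounds, here and for *ranbp3* below, rest on counts pooled over the frogs of a group. Only the group at 0 is given a floor in them, so that they leave out the counting error of the other group. PCR copies of a molecule were not told apart, so that even the error of counting may be larger.

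The depth limited how firmly the other isoform could be called absent. By the exact (Clopper-Pearson) 95% interval, a count of 0 allowed isoform 2 a share of up to 7.87% of the gene in frog E, where *nif3l1* had 45 counts, and of up to 45.9% in frog D, where it had 6. In frog H, with 9 counts, it allowed isoform 1 up to 33.6%. Here and for *ranbp3* below, these limits take every count of the gene as able to tell the isoforms apart. Read pairs that match both isoforms would make the limits wider, and their number is not known.

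The same pattern was found in *ranbp3*, whose isoforms are 872 and 890 bases long. Isoform 1 was counted 18, 9, 51 and 18 times in the endurant frogs and exactly 0 times in the burst-performant ones. Isoform 2 was counted 27, 11, 23 and 6 times in the burst-performant frogs and exactly 0 times in the endurant ones. All estimated counts of *ranbp3* were whole numbers.

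Isoform 1 of *ranbp3* was at 2.18, 1.98, 3.08 and 1.65 CPM in frogs A, D, E and G, with a mean of 2.22 ± 0.613 (SD, n = 4), and at least 31.2-fold higher in endurant individuals by pooled counts. Isoform 2 was at 2.08, 1.56, 1.46 and 1.68 CPM in frogs B, C, F and H, with a mean of 1.70 ± 0.270 (SD, n = 4), and at least 22.9-fold higher in burst-performant individuals. By the same exact interval, a count of 0 allowed isoform 2 a share of up to 6.98% in frog E and isoform 1 one of up to 45.9% in frog H, which had 6 counts of the gene. The isoform found held all counts of *ranbp3* in every frog, and at least 99.96% of those of *nif3l1*.

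**Figure D1:**
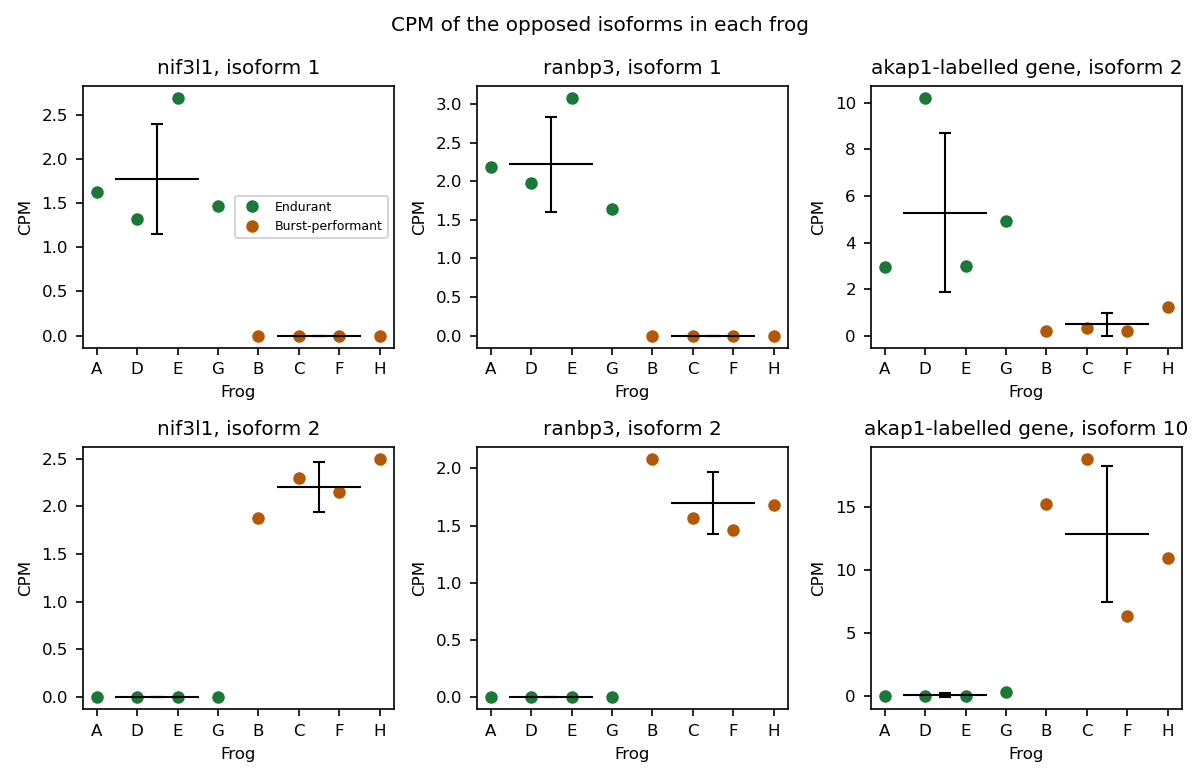
CPM of the 6 opposed isoforms in each frog (points; endurant in green, burst-performant in orange), with the group mean and SD in black (n = 4 each). In *nif3l1* and *ranbp3* each isoform is at 0 in all frogs of one group, whereas isoform 2 of the akap1-labelled gene has counts in all 8 frogs.

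Although the isoforms of *nif3l1* and *ranbp3* were exchanged between the classes, the totals of both genes differed by far less than their isoforms did. The total of *nif3l1* was 0.863, 0.646, 1.21 and 0.833 TPM in frogs A, D, E and G and 0.832, 0.873, 1.30 and 1.0 TPM in frogs B, C, F and H. On log2(CPM + 1) the endurant minus burst-performant difference of the total was -0.23, with an SD between frogs of 0.30 in endurant and 0.12 in burst-performant individuals, and the groups overlapped. The added 1 shrinks differences at levels this low, and on log2(CPM + 0.1) the difference was -0.34.

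The total of *ranbp3* was 2.23, 1.86, 2.66 and 1.77 TPM in frogs A, D, E and G and 1.75, 1.13, 1.68 and 1.27 TPM in frogs B, C, F and H. In TPM the groups did not overlap, but the lowest endurant frog, G, and the highest burst-performant frog, B, differed only in the second decimal, and of all 34222 Trinity genes with a tested transcript 2.67% had totals without overlap in TPM. In CPM, where totals without overlap were found for 2.98%, the groups overlapped, with a difference of 0.24 on log2(CPM + 1) against an SD of 0.26 in endurant and 0.14 in burst-performant individuals.

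Both genes were expressed at a low level. The mean total over 8 frogs was 0.945 TPM for *nif3l1* and 1.79 TPM for *ranbp3*, above 12.7% and 34.2% of the 34222 Trinity genes with a tested transcript. The akap1-labelled gene, at 14.1 TPM, lay above 88.4% of them. The order of the levels per length was thus the akap1-labelled gene, *ranbp3* and *nif3l1*, and the akap1-labelled gene was the highest in each of the 8 frogs, and *ranbp3* lay above *nif3l1* in each of the 8 frogs as well. Between frogs, the ranges of *ranbp3* (1.13 to 2.66 TPM) and *nif3l1* (0.646 to 1.30 TPM) overlapped.

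**Figure D2:**
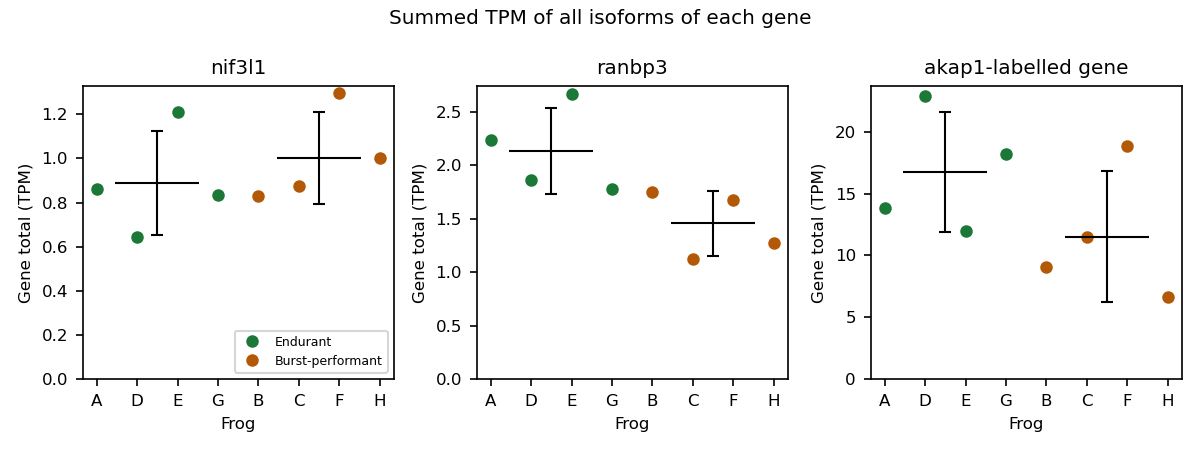
Total TPM, summed over all isoforms, of each gene in each frog (points; endurant in green, burst-performant in orange), with the group mean and SD in black (n = 4 each). Totals overlap between the groups for *nif3l1* and the akap1-labelled gene, and in *ranbp3* the lowest endurant frog (1.77 TPM) lies just above the highest burst-performant frog (1.75 TPM).

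The akap1-labelled gene differed from the other genes in that its opposed isoforms were 2 of 11 and held only part of its counts. Its called isoforms were annotated as XELAEV_18012847mg (isoform 2) and XELAEV_18015425mg (isoform 10). The symbol *akap1* is used in the text of the study for a gene with opposed isoforms and is not an entry of its annotation table. In a plot of the study it labels XELAEV_18015425mg, whereas isoform 2 bears a different entry. Its total was 13.8, 22.9, 12.0 and 18.2 TPM in frogs A, D, E and G and 9.07, 11.5, 18.8 and 6.61 TPM in frogs B, C, F and H. The difference of the total on log2(CPM + 1) was 0.48, with an SD of 0.36 in endurant and 0.45 in burst-performant individuals, and the groups overlapped.

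Isoform 10 (3561 bases) was the burst-performant one. It had 199, 132, 101 and 39 counts in frogs B, C, F and H, against 3 counts in endurant frog G and 0 after rounding in frogs A, D and E. Its burst-performant level of 12.9 ± 5.37 CPM stood against an endurant level of 0.0773 ± 0.150 CPM (SD, n = 4 each). The ratio of pooled counts, rounded to 471 and 3 and scaled by library size, was 161 (exact 95% counting interval 54.7 to 783). This interval takes Kallisto's estimates as counts and leaves out the error of sharing read pairs among the 11 isoforms. The ratio also depends on the rounding of the small endurant count. It made up 34.3%, 29.2% and 32.0% of the gene in B, C and H, respectively, and 9.40% in frog F. It was the leading isoform in frog B only, with isoform 11 ahead in frog C and isoform 4 in frogs F and H.

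Isoform 2 (2822 bases) was the endurant one and a minor part of the gene. It was counted 25, 46, 50 and 54 times in the endurant frogs, and 3, 2, 4 and 4 times in the burst-performant frogs. It was thus present in all frogs, with an endurant level of 5.28 ± 3.41 CPM and a burst-performant level of 0.502 ± 0.489 CPM (SD, n = 4 each). Counts pooled over the frogs of each group and scaled by library size, which weigh deep libraries more than these means do, were 13.0-fold apart. Its share of the gene was 5.07% to 10.1% in endurant and 0.340% to 3.58% in burst-performant individuals. Frog D had the highest endurant level, at 10.2 CPM. The exact test no longer called the isoform without frog D, nor without frog B, C, F or G.

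Together isoforms 2 and 10 held 17.1 ± 13.7% (SD, n = 8) of the counts of the gene, from 5.07% in frog A to 35.6% in frog H. In *nif3l1* and *ranbp3* the opposed isoforms were the whole gene. Isoform 2 held a mean of 6.74% where isoform 10 was near 0, while isoform 10 held a mean of 26.2% in the burst-performant frogs, so that the pair did not take equal parts of the gene.

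Isoform 1 (3669 bases) was the leading isoform of frog A and was at 24.3, 5.6, 16.7 and 16.0 CPM in the endurant frogs. It was at 0 in burst-performant frogs B, C and F and at 2.51 CPM in frog H, so that the groups did not overlap. The exact test gave it a log2 fold change of 4.78 but did not call it, while isoform 2, with 3.67, was called. Without frog H it was called as well.

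Isoform 3 (3584 bases) held a steady share in the endurant frogs, at 29.6%, 31.6%, 32.0% and 27.1% in frogs A, D, E and G. In the burst-performant frogs it was at 0 in B and C, 18.1% in F and 5.96% in H. Its CPM, 17.36 to 31.8 in endurant and 0 to 12.3 in burst-performant individuals, did not overlap, and with a log2 fold change of 2.61 it was not called either.

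Isoform 4 (3646 bases) ran from 0 in frog B to 38.7 CPM in frog F, both burst-performant, and from 7.34 to 14.2 CPM in the endurant frogs. Isoform 7 (1830 bases) was the most even of the isoforms that averaged 10% or more of the gene, with 7.42% to 12.8% in endurant and 5.84% to 16.5% in burst-performant individuals. As a percent of the TPM of the gene, this shorter isoform ran from 9.89% in frog H to 28.2% in frog C.

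Of the 13 tested isoforms of the 3 genes, 8 had groups that did not overlap in CPM, namely the 6 called isoforms and isoforms 1 and 3 of the akap1-labelled gene. Among all 55631 tested transcripts this was so for 2.92% (1.63% higher in all endurant and 1.29% higher in all burst-performant frogs), and nothing is read from the comparison because the genes were chosen for this contrast. Isoforms 6 and 9 of the akap1-labelled gene, with 11 and 20 counts over all frogs, fell under the filter of a CPM above 1 in at least 2 frogs. Isoform 8 ran from 0.372 to 1.91 CPM in the endurant frogs and from 0.648 to 2.33 CPM in the others.

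A further pair of isoforms of the akap1-labelled gene divided the frogs in a way that cut across the performance classes. Isoforms 5 (3691 bases) and 11 (3668 bases) were both found in endurant frogs D and G and in burst-performant frogs B and C, and both were at 0 in endurant frogs A and E and burst-performant frogs F and H. Isoform 5 had 88 and 19 counts in frogs D and G and 178 and 76 in frogs B and C. Isoform 11 had 19 and 172 counts in frogs D and G and 108 and 157 in frogs B and C. Together they held 23.3% and 23.6% of the gene in frogs D and G and 49.4% and 51.3% in frogs B and C.

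By counts, the leading isoform was isoform 1 in frog A, isoform 3 in frogs D, E and G, isoform 10 in frog B, isoform 11 in frog C and isoform 4 in frogs F and H. By TPM, isoform 7 led in frog C, at 28.2% against 27.9% for isoform 11, and the leading isoform of every other frog stayed. Isoforms 1, 3 and 4 together made up 83.4%, 51.2%, 82.5% and 60.9% of the gene in the endurant frogs. In burst-performant frogs F and H they made up 74.9% and 50.4%, but in frog C only 1.09% and in frog B close to 0. Burst-performant individuals thus did not share 1 composition, frogs B and C being unlike frogs F and H.

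**Figure D3:**
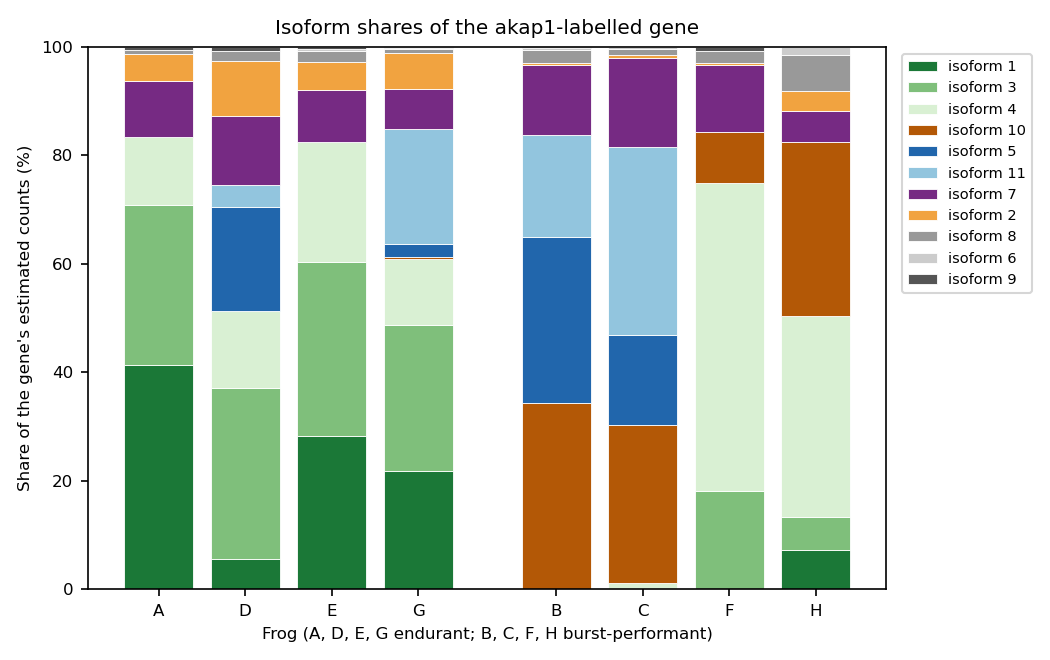
Stacked shares (percent of estimated counts) of the 11 isoforms of the akap1-labelled gene in each frog, with the endurant frogs on the left and the burst-performant frogs on the right. Isoforms 5 and 11 (blue) occur in frogs D, G, B and C only, and isoform 10 (brown) in the burst-performant frogs apart from 0.409% in frog G.

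The distance between the compositions of 2 frogs was taken as the share of the gene, in percentage points, that would have to change isoform. Among the 6 pairs of endurant frogs it ran from 13.9 (A and E) to 35.8 (A and D). Among the 6 pairs of burst-performant frogs it ran from 20.7 (B and C) to 75.8 (C and F), and among the 16 pairs of frogs from different groups from 47.3 (E and F) to 88.4 (A and B). All endurant pairs were thus closer than any mixed pair, whereas 5 of 6 burst-performant pairs did not come as close as the least alike endurant pair. The distance takes in the opposed isoforms of the gene, which were chosen for differing between the groups. That choice widens the distance of mixed pairs, and the distance was not taken without these isoforms. Nothing is therefore read from the comparison of mixed pairs with pairs of the same group.

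Lengths of the isoforms were compared within each gene. The isoforms of *nif3l1* differed by 11 bases and those of *ranbp3* by 18 bases, of which only the latter is a multiple of 3. Among the 2589 Trinity genes with exactly 2 isoforms, both tested, the median difference was 81 bases. A difference of 18 bases or less was found in 23.6% of them and one of 11 bases or less in 13.3%, so that differences this small were not rare in the assembly. A multiple of 3 was found in 36.0%.

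Among the 6 longest isoforms of the akap1-labelled gene, from 3561 to 3691 bases, differences of 85, 23 and 22 bases recurred. Isoforms 1 and 3, and likewise isoforms 4 and 10, differed by 85 bases. Isoforms 1 and 4, isoforms 3 and 10, and isoforms 5 and 11 differed by 23 bases. Isoforms 5 and 1, and isoforms 11 and 4, differed by 22 bases. The burst-performant isoform 10 was the shortest of the 6 and lay 108 bases under isoform 1. Some of these equal differences follow from the others by arithmetic. Other pairs differed by other lengths, such as isoforms 1 and 11 (1 base), 4 and 5 (45 bases) and 3 and 4 (62 bases). Equal differences in length do not show that the same bases differ. These 6 isoforms together held between 74.5% of the counts of the gene in frog D and 84.9% in frog G. That range was far narrower than that of any of isoforms 1, 4, 10 and 11 taken alone.

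Across the whole assembly, strictly opposed isoforms were rare. Among 10769 Trinity genes with 2 or more isoforms and at least 5 counts in every frog, 2 (0.0186%) had 1 isoform with at least 5 counts in every endurant and under 0.5 in every burst-performant frog and another isoform the other way round. They were *nif3l1* and *ranbp3*, which the choice of the genes by this contrast had favoured. Without frog G the number was 4 and without frog H it was 6. With at least 10 counts in place of 5 it was 0, since both genes had under 10 counts in frogs D and H.

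The spread of isoform shares between frogs was also set against that of other genes. For each of the 10769 genes the largest SD of an isoform share over the 8 frogs was taken, and its median was 16.2 percentage points. It was 53.4 points for *nif3l1* and 53.5 points for *ranbp3*, above 99.96% and 99.99% of the genes, and 19.1 points for the akap1-labelled gene, above 58.9%. For a gene with 2 isoforms, opposed calls between groups of 4 frogs raise this SD. The choice of *nif3l1* and *ranbp3* therefore favoured high values, and nothing is read from them. Among the 5673 genes with at least 20 counts in every frog, which *nif3l1* and *ranbp3* did not reach, the akap1-labelled gene lay above 71.6%. With shares taken from TPM in place of counts it lay above 59.0%.

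A full exchange of isoforms between frogs was not limited to these genes. Of 3373 Trinity genes with 2 isoforms and at least 5 counts in every frog, 30 (0.889%) had at least 95% of their counts on 1 or the other isoform in every frog, with each isoform leading in some frogs. The less common isoform was that of 1 frog in 11 of these genes, of 2 frogs in 8, of 3 frogs in 7 and of 4 frogs in 4, and *nif3l1* and *ranbp3* were 2 of the latter 4, a place that their choice by opposed calls had favoured.

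**Figure D4:**
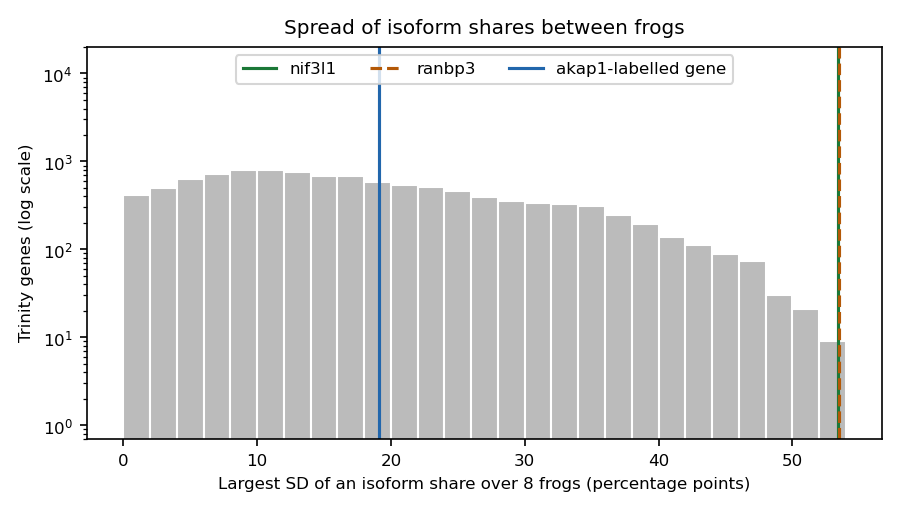
Histogram of the largest SD of an isoform share over the 8 frogs (percentage points, horizontal axis) in 10769 Trinity genes with 2 or more isoforms and at least 5 counts in every frog (log scale, vertical axis). The lines mark *nif3l1* (53.4) and *ranbp3* (53.5) in the last filled bin and the akap1-labelled gene (19.1) near the middle.

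In the fit of all 55631 transcripts with edgeR's quasi-likelihood test, no transcript was called at an FDR of 0.05 and a log2 fold change of 2 (0%), and 0 of the 13 tested isoforms of the 3 genes were called. Before adjustment, 2038 of the 55631 transcripts and 7 of the 13 isoforms had a p under 0.05 in this test. The exact test, by which the genes had been chosen, called 109 transcripts (0.196%, with 0.110% higher in endurant and 0.0863% in burst-performant individuals) and 6 of the 13 isoforms, 3 in each direction, and DESeq2's Wald test called 153 (0.275%) and the same 6 isoforms. At the level of gene totals, the quasi-likelihood test called 0 of 35656 Trinity genes, with 1579 at an unadjusted p under 0.05, the exact test called 45 (0.126%, with 0.0785% higher in endurant and 0.0477% in burst-performant individuals) and DESeq2 33, and the totals of *nif3l1*, *ranbp3* and the akap1-labelled gene were among none of these calls. Nothing about the 3 genes is read from these counts, as they came from the contrast used to choose them. The 5 calls on *nif3l1*, *ranbp3* and isoform 10 were made by the exact test with each frog left out in turn, whereas isoform 2 of the akap1-labelled gene was lost without frog B, C, D, F or G. These runs repeat the test and the frogs of the choice, so that a call that stayed lends it no independent support.

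The transcripts with levels most like those of the opposed isoforms were sought among all tested transcripts of other Trinity genes, by the mean absolute difference in log2(CPM + 1) over the 8 frogs. As the opposed isoforms were chosen for their difference between the groups, transcripts that differ likewise come out nearest. Only called transcripts carry a symbol, and nothing is read from the likeness. The transcript nearest to isoform 1 of *nif3l1* was one of *rbl1* (TR61871|c0_g2_i2, difference 0.11), followed by isoform 1 of *ranbp3* (0.11). For isoform 2 of *nif3l1* the nearest was isoform 2 of *ranbp3* (0.15), followed by LOC108709806 (0.16). Isoform 1 of *ranbp3* was nearest to isoform 1 of *nif3l1* (0.11) and to a *mapk8* transcript (TR1677|c2_g1_i7, 0.14), and isoform 2 to XELAEV_18006214mg (0.09) and XELAEV_18037240mg (0.10). *rbl1* encodes a retinoblastoma-like protein and *mapk8* a stress-activated protein kinase.

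Isoform 10 of the akap1-labelled gene was nearest to a *baz1b* transcript (TR69111|c4_g2_i3, 0.35), a gene for a chromatin-associated bromodomain protein, and to XELAEV_18018000mg (0.43). Isoform 2 was nearest to TR13106|c0_g2_i1 (0.35) and TR84485|c1_g3_i4 (0.36), which have no symbol. TR13106|c0_g2_i1 averaged 4.4 CPM in the endurant frogs and 0.720 CPM in the others, 3 of which were at 0. Its name places it beside TR13106|c0_g1, the Trinity gene of *fsd2*, which had a burst-performant mean of 4.22 ± 3.09 CPM (SD, n = 4) and was at 0 in every endurant frog. This pair was singled out after its values were seen.

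The other genes of the same functional groups can be followed only through transcripts that the study annotated because they were called, so that their directions are fixed by that choice. In the actin network that the study draws around *nif3l1*, both *arpc4* (a subunit of the Arp2/3 complex) and *ptk2.L* (focal adhesion kinase) had a called transcript higher in burst-performant individuals. These transcripts had means of 5.99 ± 3.65 and 2.59 ± 1.42 CPM (SD, n = 4) and were at 0 in all endurant frogs. The genes themselves were expressed in both groups, with mean totals of 29.9 endurant and 41.8 burst-performant CPM for *arpc4* and 13.6 and 17.2 CPM for *ptk2.L*. *abi2* and *comp*, which belong to the same network, matched no annotated entry by symbol and were not analysed here. The study reports both as higher in endurant individuals, so that *arpc4* and *ptk2.L* do not stand for the whole network. Of 7 genes of lipid metabolism, mitochondria and protein kinase A named beside *akap1*, 6 had their called transcript higher in endurant individuals (*mfn1*, *esrra*, *atp5f1b*, *dgat2.L*, *gls2* and *nfs1.L*) and 1, *fsd2*, in burst-performant individuals. In *mfn1*, which encodes a mitochondrial fusion protein, the called transcript had an endurant mean of 17.6 ± 12.4 CPM (SD, n = 4) and was at 0 in the other frogs, while the gene total was at 44.8 and 35.0 CPM. Endurant and burst-performant mean totals were 31.3 and 21.7 CPM for *esrra* and 2420 and 1678 CPM for *atp5f1b*. They were 1.98 and 0 CPM for *dgat2.L*, 1.51 and 0.115 CPM for *gls2*, 3.58 and 0 CPM for *nfs1.L* and 0 and 4.22 CPM for *fsd2*. As *gls2*, *nfs1.L* and *fsd2* have 1 isoform each, their total is the called transcript itself and had to differ. In *dgat2.L*, with 2 isoforms, the called transcript had 1.72 CPM of the endurant mean total.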

How the data were processed

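Trimmed paired-end reads of all frogs were assembled de novo with Trinity by the authors, who then quantified each library with Kallisto. The versions of Trinity, Trimmomatic and Kallisto are not stated in the labels or methods. Estimated counts were deposited without a correction for transcript length or library depth, whereas the deposited TPM values are scaled by effective length. The tables also hold lengths in bases.

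Estimated counts were rounded and fitted for all transcripts, and for sums per Trinity gene, with edgeR 4.0.16 in R 4.3.3 (TMM, quasi-likelihood test), keeping those with a CPM above 1 in 2 or more frogs. A transcript or gene was called at a Benjamini-Hochberg FDR of 0.05 or less with a log2 fold change of 2 or more in either direction. Alternatives were edgeR's exact test on counts and on TPM, DESeq2 1.42.0, limma 3.58.1 on log2(TPM + 1) and log2(TPM + 0.1), other scalings and filters, and each frog left out. The scripts were tested on simulated counts. Shares, totals and lengths were computed with Python 3.11.15 and pandas 2.3.3, and intervals with scipy 1.17.1.

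The members, lists and measures were chosen with earlier results of these data known. Symbols come from the study's annotation table, joined by exact-test log2 fold change and FDR (103 of 103 entries joined). Isoforms were described singly if called by the exact test or holding at least 10% of their gene on average, and isoforms 5, 8 and 11 were taken in once their values were known. Genes of similar level were the 2 nearest transcripts per called isoform. Libraries of a group differed by more than the noise of sampling (chi-square over degrees of freedom from 20.8 to 52.4) and each counted as 1 replicate. Total estimated counts of 4449192 to 17359253 per frog set the precision.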

Additional observations from a re-analysis of the deposited data

Results flagged for a closer look

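The level of each opposed isoform, of each isoform averaging 10% or more of its gene, and of the 3 gene totals was checked in each group of 4 frogs for a frog far from the others (Dixon's criterion at 95%). Of 22 such groups, 5 held such a frog, all in the akap1-labelled gene. A share of 5% by chance holds for independent values from a normal distribution. Isoforms of the same gene with values near 0 are not of this kind, so that nothing is read from the number. Burst-performant frog H stood apart in isoform 1, at 2.51 CPM against 0 in the other burst-performant frogs, and in isoform 2, at 1.23 CPM against 0.213 to 0.332 CPM. Burst-performant frog F stood apart in isoform 3, at 12.3 CPM against 0 to 2.05 CPM. Endurant frog D stood apart in isoform 7, at 12.9 CPM against 5.48 to 6.05 CPM, and endurant frog G in isoform 10, at 0.302 CPM against at most 0.00374 CPM. Frogs H and D had the smallest libraries. The part of depth in these values was not tested.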

How the results depend on the processing

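Across all transcripts, where the quasi-likelihood test called 0, edgeR's exact test called 109, DESeq2 153, the exact test on TPM entered as counts 4, limma 5 on log2(TPM + 1) and 5 on log2(TPM + 0.1), and the quasi-likelihood test without a filter 13. The quasi-likelihood, exact and DESeq2 tests and both limma fits tested 55631 transcripts, 13 of them isoforms of the 3 genes. The exact test on TPM tested 160477 (12 of them such isoforms) and the test without a filter 211305 (15). These counts of calls therefore do not share 1 base. Of the isoforms of the 3 genes, the exact test and DESeq2 called 6 each, and the test without a filter 1 (isoform 10 of the akap1-labelled gene). The exact test on TPM and both limma fits called 0. Other scalings, filterByExpr and each frog left out gave 0 in both counts. Gene totals gave 45 calls in the exact test and 33 in DESeq2, and with single frogs left out 0 to 1, the 1 without frog C. Leaving out frogs, the exact test called 5 to 7 isoforms of the 3 genes. Strictly opposed isoforms were found in 2 to 6 genes with a frog left out and in 0 genes at 10 counts or more. Genes with a full exchange between frogs numbered 9 at 10 counts or more and 36 to 47 with a frog left out, the 47 without frog F. These alternatives to the exact test and to the full exchange were added after seeing the data.

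Under all alternatives run, the direction of the gene totals and of the 6 share differences stayed. The 6 isoforms were chosen for their opposed directions, so that the direction of their share differences was close to fixed. Nothing is read from its staying. With a frog left out, the difference of the *nif3l1* total ran from -0.37 to -0.15 on log2(CPM + 1), that of *ranbp3* from 0.12 to 0.33 and that of the akap1-labelled gene from 0.29 to 0.61. No paired analysis was possible because the groups hold different frogs, and replicate numbers given in accession order link none of them. Low counts of *nif3l1* and *ranbp3* in frogs D and H limit what their zeros show.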
